A study of Mus musculus with 159 samples.

Results

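The enzymes described here are the glutathione transferases and the antioxidant enzymes that work beside them, 43 mouse genes chosen by name from what they do. They were chosen with earlier results of these data known. Of the 43 genes, 37 had at least 1 probe in the table of values, with 54 probes in all, among 9703 genes with a named probe, and 30 had values in all 8 comparisons. Gstm3, Gstm7, Mgst2, Gsr, Prdx5 and Prdx6 had no probe and were not analysed here. Transcripts were measured with Illumina MouseRef arrays on 159 samples of liver and prefrontal cortex (PFC), each from a single animal, and the labels give all mice as female C57BL/6J of 2.5 months, whereas by the methods Chronic and CI mice were older at the start than DID and LPS mice. In the Chronic study treated mice could choose between water and 20% ethanol without interruption, in the Chronic Intermittent (CI) study they had this choice on every other day, and in the Drinking in the Dark (DID) study ethanol took the place of water for a few hours of the dark phase. Mice of the LPS study received 2 injections of lipopolysaccharide at 1 mg/kg, a week apart, and tissue was taken a week after the last. Each study had controls of its own on water (saline injections for LPS in the methods, water in the labels), and all groups share the strain, the sex and housing in single cages. Groups held 10 mice, except for 9 controls in Chronic PFC. Tissue of the ethanol studies was taken about a day after the last access to ethanol, and DID mice were killed in their dark phase.

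Glutathione is the small thiol that cells hold in the largest amount, and glutathione transferases (GSTs) join it to reactive compounds so that these can be exported. The cytosolic classes are named alpha, mu, pi, theta, omega and zeta. The kappa enzyme is found in mitochondria and peroxisomes, and the microsomal enzymes (Mgst) sit in membranes. Gclc and Gclm form the first and limiting enzyme of glutathione synthesis, Gss completes it, and glutathione peroxidases (Gpx), peroxiredoxins (Prdx), thioredoxin and glutaredoxin use thiols to remove peroxides and to repair proteins, while superoxide dismutases (Sod) and catalase (Cat) act on oxygen radicals and hydrogen peroxide. Liver is among the organs richest in these enzymes, and it is also where ethanol is oxidised, in part by Cyp2e1, a source of reactive oxygen. Many of the genes are switched on by the factor NRF2 at antioxidant response elements.

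The core of that element was searched as TGACNNNGC and TGAGNNNGC, on both strands, in the RefSeq promoter windows of GRCm38.p6, which run from 250 bases before to 50 bases after a transcript start. Of the 43 genes 36 had a window, and 12 of the 36 (33.3%) held a core, beside 30.8% of all 27025 genes. Over the single windows, of which a gene can have several, the share was 26% of 50 for these genes and 27.8% of all 32851 windows. Within these windows the cores were thus about as common as over all genes. Sequence further from the start was not searched, and control of the genes by NRF2 was not tested. No window of these genes held both cores on shared bases, and 0.128% of all windows did. The 250 bases before the start are printed for 3 of the genes named in the results below, with the cores in capitals. Gstp1 is at chr19:4037913-4038162, minus strand, Srxn1 at chr2:152105274-152105523, plus strand, and Mgst3 at chr1:167393842-167394091, minus strand.
Gstp1: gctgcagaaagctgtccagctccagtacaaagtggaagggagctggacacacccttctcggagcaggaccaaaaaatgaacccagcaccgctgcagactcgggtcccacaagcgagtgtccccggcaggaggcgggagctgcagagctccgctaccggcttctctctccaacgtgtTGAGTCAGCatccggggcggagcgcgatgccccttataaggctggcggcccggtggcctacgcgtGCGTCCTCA
Srxn1: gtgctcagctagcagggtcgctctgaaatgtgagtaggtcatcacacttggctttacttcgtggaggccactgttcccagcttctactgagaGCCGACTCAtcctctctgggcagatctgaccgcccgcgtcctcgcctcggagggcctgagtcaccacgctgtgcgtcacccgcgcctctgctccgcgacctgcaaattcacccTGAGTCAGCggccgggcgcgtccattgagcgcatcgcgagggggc
Mgst3: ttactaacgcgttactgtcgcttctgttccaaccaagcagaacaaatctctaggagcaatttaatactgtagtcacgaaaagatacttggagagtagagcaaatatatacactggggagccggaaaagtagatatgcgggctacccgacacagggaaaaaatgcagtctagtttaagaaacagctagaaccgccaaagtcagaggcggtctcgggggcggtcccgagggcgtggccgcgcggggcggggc
The windows of Gstp1 and Srxn1 both held TGAGTCAGC, with its first base at position -74 in Gstp1 and -45 in Srxn1, counted so that the start is 0 and -1 is the base before it. Gstp1 had a second core on the opposite strand at -9, and Srxn1 had further ones at -158 and, past the printed stretch, at 28. The letters of neither core occur in the window of Mgst3, nor in the windows of Gss and Glrx, which are not printed. In the results below Gstp1, with cores, and Gss and Glrx, without one, rose in liver, whereas Srxn1, with cores, passed no adjusted test. Whether a core goes with a change was not tested. A match of letters is not a site of binding.

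The values are the log2 intensities that the authors had normalised, and they ran from 7.7 to 15.65. A change is treated less control on that scale, with its standard error (SE) from limma, a linear model fitted to each probe with a moderated spread. DE means an unadjusted p under 0.05, the threshold used in the methods of the study, and the words rose and fell are kept for a Benjamini-Hochberg adjusted p under 0.05 over all probes of the comparison. Genes with several probes are counted by the probe with the highest mean. Array by array, the lowest mean correlation with the other arrays of a set was 0.946, in CI PFC, and 0 to 3 arrays of a set stood apart from the rest. Single values that the authors had blanked as outliers made up 0.492% to 0.619% of a set. In whole tissue, fewer cells of a type and less RNA per cell cannot be told apart.

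In liver most of these transcripts had a higher mean after ethanol and a lower one after LPS. In Chronic liver 24 of 37 measured genes had a higher mean in treated mice and 9 were DE (8 higher, 1 lower), beside 12.1% of all probes. In CI liver 26 of 36 were higher and 9 were DE (8 higher, 1 lower), beside 10.5%, and in DID liver 24 of 35 were higher and 5 were DE (4 higher, 1 lower), beside 5.19%. LPS liver had 12 of 36 higher and 6 DE (2 higher, 4 lower), beside 11.6%. Median changes over the genes were 0.07, 0.06, 0.08 and -0.04 for Chronic, CI, DID and LPS liver, where the medians over all probes lay within 0.002 of 0. Over all probes about as many were higher as lower, 49.8%, 50.2%, 49.2% and 48.8%.

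**Figure D1:**
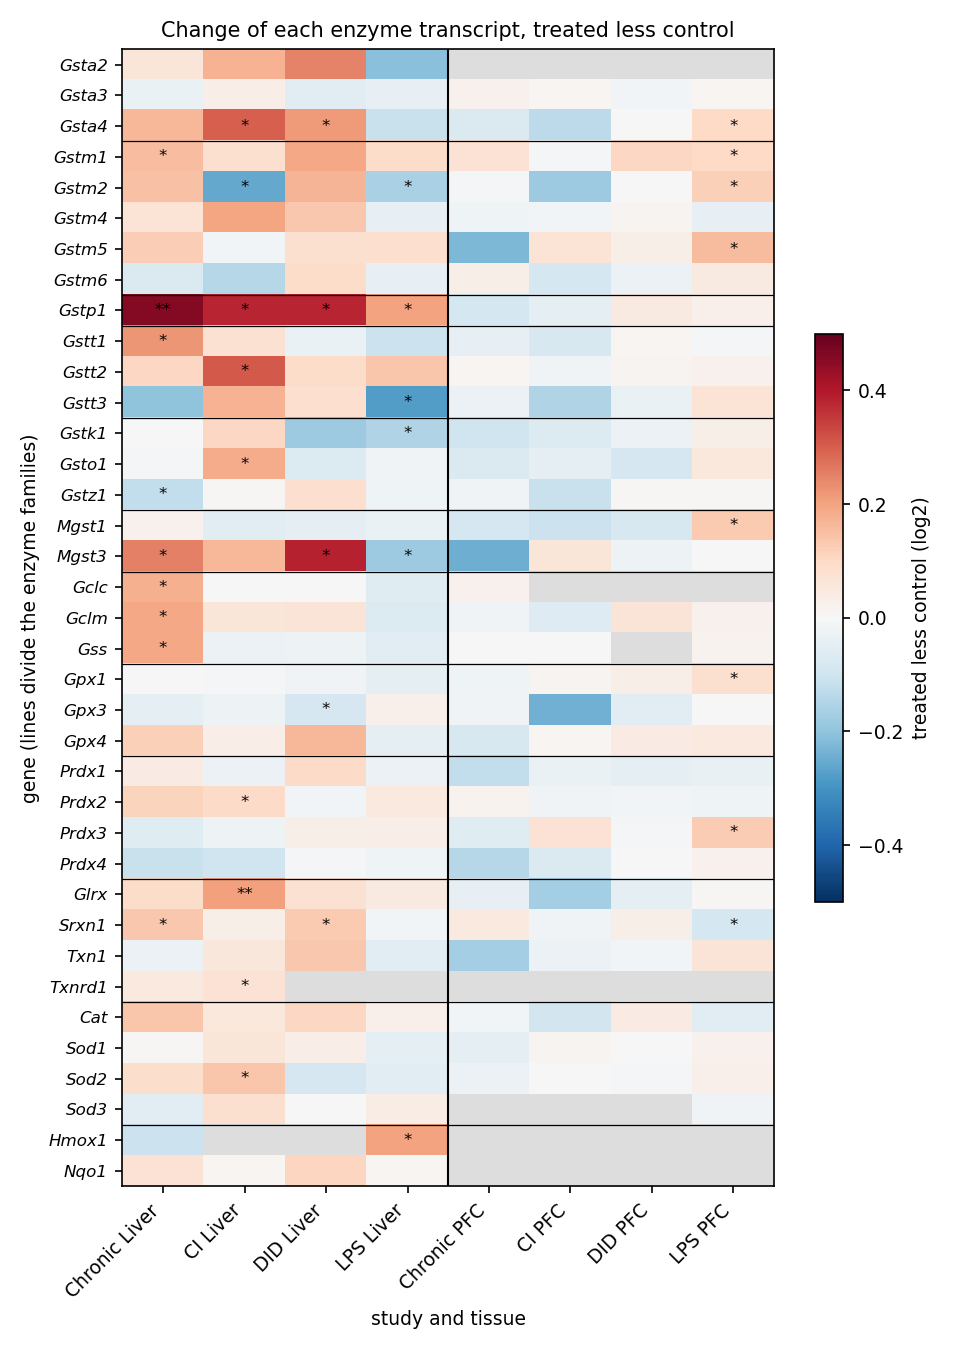
Change of each measured enzyme transcript, treated less control in log2, for 4 studies in liver (left) and PFC (right). Each gene is drawn by its probe with the highest mean. One star marks an unadjusted p under 0.05, a pair of stars an adjusted p under 0.05, grey marks a gene without values, and colours end at a change of 0.5. Gstp1 is red in all 4 livers, with its largest change, 0.46, in Chronic liver.

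Few single genes passed the adjusted test. In Chronic liver Gstp1 and Gss rose, where 1.50% of all probes passed, and in CI liver Glrx and Gstp1 rose, where 0.230% did. Gss in Chronic liver and Gstp1 in CI liver passed by a probe other than their highest, so that by highest probes 1 gene passed in each of these livers. No gene of the set passed in DID liver, where 0.0224% of probes did and 5 of the genes were DE, nor in LPS liver, where 0.555% did and 6 were DE. In PFC 0 of the genes passed in limma in any study, where 0, 0, 0 and 0.113% of all probes did for Chronic, CI, DID and LPS.

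Gstp1, the pi-class transferase, was the 1 gene of this set that was DE in all 4 livers. It lies on chromosome 19 (4035411 to 4037912, GRCm38.p6), beside the related genes Gstp2 and Gstp3, so that its probes may also read their transcripts. In Chronic liver its highest probe (ILMN_1223230) lay at 11.93, 12.17 and 12.35 (lowest, median, highest) in controls and at 12.41, 12.57 and 12.92 in treated mice. Every treated mouse was thus above every control. The rise was 0.46 (SE 0.07, adjusted p = 0.00121, higher in 10 of 10), or 1.37-fold. A second probe, ILMN_2677046, had a change of the same size, 0.46, with more spread (SE 0.14, adjusted p = 0.110), from 11.38, 11.79 and 12.38 to 11.69, 12.27 and 12.71, and its groups overlapped.

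In CI and DID liver ILMN_2677046 was the highest probe. Its CI controls lay at 11.69, 12.14 and 12.70 and the treated mice at 12.08, 12.53 and 13.07, overlapping, with a change of 0.38 (SE 0.13, adjusted p = 0.274, higher in 9 of 10). ILMN_1223230 gave 0.44 (SE 0.14, adjusted p = 0.186, higher in 10 of 10). It was another probe of the gene, ILMN_2793329, near the floor of the scale, that passed the adjusted test in CI liver: 9 controls lay at 7.95, 8.01 and 8.09 and the 10 treated mice at 8.09, 8.19 and 8.34. Their ranges met at the edge, with 9 of 10 treated mice above every control. That rise was 0.18 (SE 0.03, adjusted p = 0.0152), fitted without 1 control value that the authors had blanked. In DID liver ILMN_2677046 had a DE change of 0.38 (SE 0.12, adjusted p = 0.468, higher in 9 of 10). ILMN_1223230 went there from 11.20, 11.54 and 12.12 to 11.54, 11.91 and 12.55, a DE change of 0.37 (SE 0.14, adjusted p = 0.653), and the groups overlapped, with 3 of 10 treated mice above every control. LPS liver showed a smaller DE change of 0.20 (SE 0.09, adjusted p = 0.364, higher in 8 of 10), from 12.55, 12.92 and 13.20 to 12.87, 13.13 and 13.40, with overlap.

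Across the 4 livers 37 of 40 treated mice were above the mean of their own controls by ILMN_1223230, and 35 of 40 by ILMN_2677046. In PFC the same probes had 18 of 39 and 21 of 40 treated mice above, and changes of -0.11 to 0.04 and -0.09 to 0.04, none DE. Whether the change of Gstp1 differs between tissues was not tested. Between studies of liver it was not shown to differ. Chronic less LPS was 0.21 by ILMN_1223230 (95% interval -0.05 to 0.48, adjusted p = 0.751), and CI less DID was 0.00 by ILMN_2677046, with an interval (-0.38 to 0.38) as wide as the changes themselves.

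**Figure D2:**
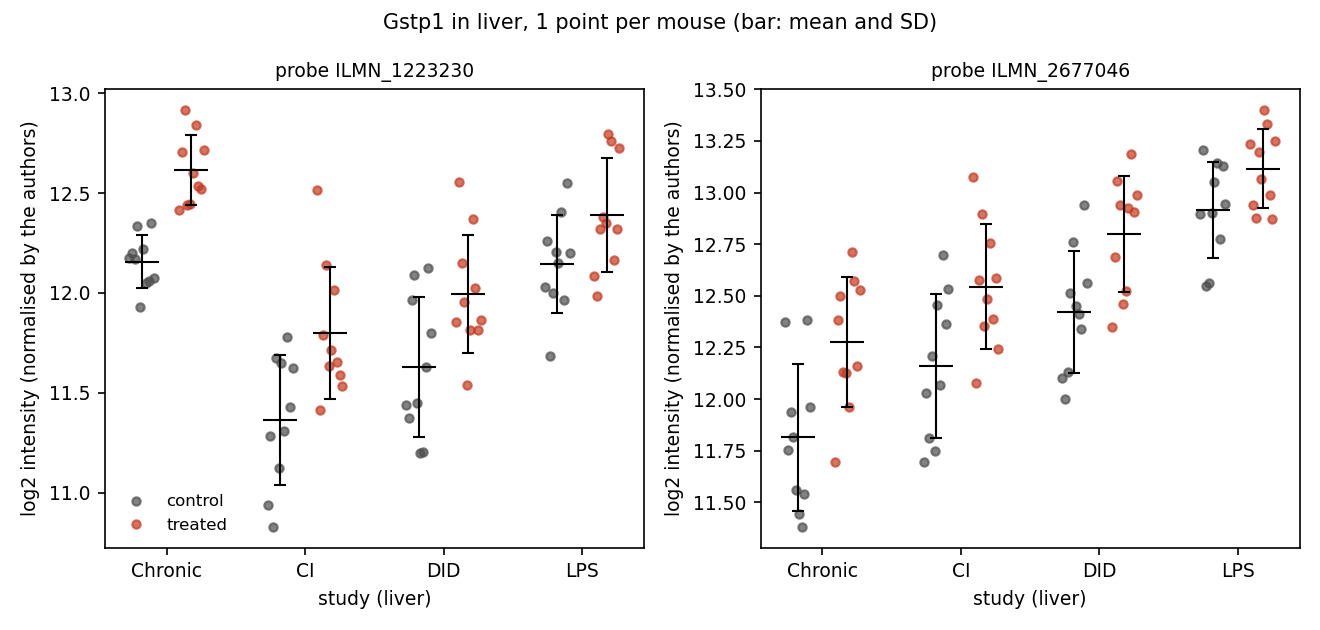
Log2 intensity of 2 probes of Gstp1 in liver, 1 point per mouse, control (grey) and treated (red) in each of 4 studies, with the mean and SD as a bar. In Chronic liver the lowest treated mouse by ILMN_1223230, at 12.41, is above the highest control, at 12.35. In all other panels the groups overlap with the treated mean above that of the controls.

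Mgst3, a microsomal transferase and peroxidase, had DE changes by its highest probe that were upward in Chronic and DID liver and downward in LPS liver. By this probe (ILMN_2615035) 9 controls of Chronic liver lay at 10.75, 10.90 and 11.04 and 10 treated mice at 10.76, 11.11 and 11.51. DID liver went from 9.70, 10.07 and 10.49 in 10 controls to 10.36, 10.44 and 10.68 in 9 treated mice, all 9 above the control mean. In both studies the groups overlapped, and the changes were DE but did not pass the adjusted test, at 0.25 (SE 0.07, adjusted p = 0.0863) and 0.39 (SE 0.09, adjusted p = 0.225). In LPS liver the direction was downward, with 8 of 10 treated mice below every control. Here 9 controls lay at 10.63, 10.73 and 10.88 and treated mice at 10.41, 10.54 and 10.76, a DE change of -0.18 (SE 0.04, adjusted p = 0.0646). CI liver lay between, at 0.17 (SE 0.11, adjusted p = 0.644, higher in 7 of 10).

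The difference between the studies was itself tested, as the change in a study less that in another, over 6 pairs in each tissue. Age, light phase and treatment schedule also differ between studies and cannot be told apart from these differences. Mgst3 was the 1 gene of the set that passed, and in 2 pairs of liver, where 0.161% of all 53540 tests passed. DID less LPS was 0.57 (SE 0.10, adjusted p = 0.00944) and Chronic less LPS was 0.43 (SE 0.09, adjusted p = 0.0188). These fits lacked 1 control value of Chronic, 1 treated value of DID and 1 control value of LPS liver that the authors had blanked as outlying, which narrows the spread. The second probe of the gene, ILMN_1238479, had all 10 values in each of these groups and gave differences of 0.39 (SE 0.13, adjusted p = 0.247) and 0.30 (SE 0.12, adjusted p = 0.483), in the same direction and not past the test. Its changes were 0.23 in Chronic, 0.02 in CI, 0.32 in DID and -0.07 in LPS liver. In PFC 0 of 66698 tests passed in limma, which is 0% of them, and Mgst3 had changes there of -0.25 (SE 0.13), 0.06, -0.02 and 0.00 in Chronic, CI, DID and LPS, none of them DE.

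**Figure D3:**
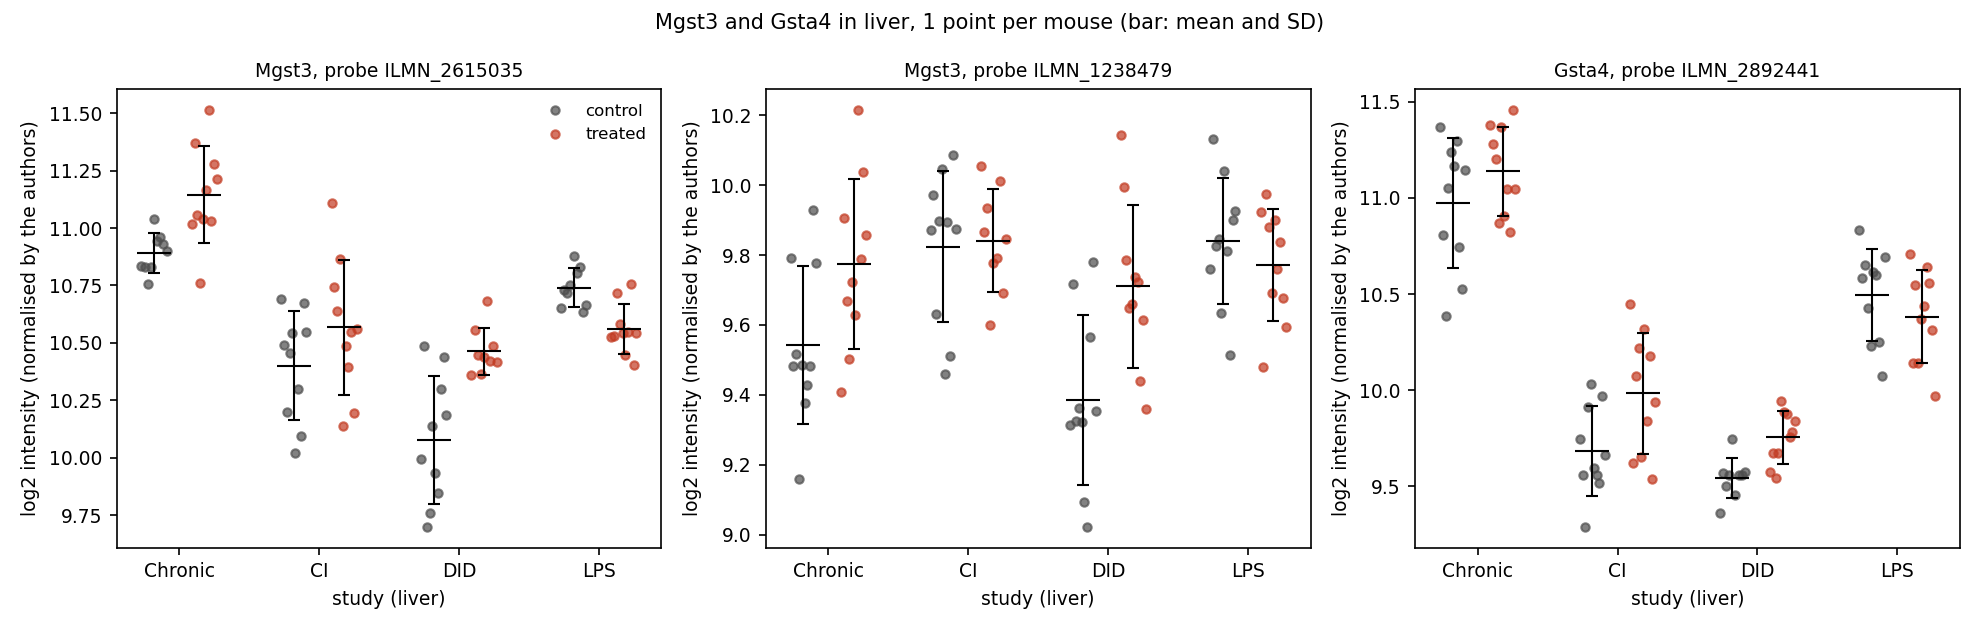
Log2 intensity of 2 probes of Mgst3 and of Gsta4 in liver, 1 point per mouse, control (grey) and treated (red) in 4 studies, with the mean and SD as a bar. The treated points of Mgst3 lie mostly above the controls in Chronic and DID and, by ILMN_2615035, mostly below them in LPS, where the medians are 10.54 and 10.73.

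Of the alpha and mu classes, Gsta4, Gstm1 and Gstm2 were DE in an ethanol liver by their highest probes, and no gene passed the adjusted test. Gsta4, which conjugates the lipid aldehyde 4-hydroxynonenal, went in CI liver from 9.29, 9.63 and 10.03 to 9.54, 10.01 and 10.45, a change of 0.30 (SE 0.11, adjusted p = 0.327), with 5 of 10 treated mice above every control. Its 9 DID controls, 1 value being blank, lay at 9.36, 9.56 and 9.74 and the treated mice at 9.54, 9.77 and 9.94, 6 of 10 of them above every control, a change of 0.21 (SE 0.06, adjusted p = 0.258). In Chronic liver its change was 0.16 and in LPS liver -0.11, neither DE. Gstm1, an abundant liver transferase, was DE and higher in Chronic liver by 0.16 (SE 0.06, adjusted p = 0.261, higher in 10 of 10), with controls at 13.96, 14.39 and 14.65 and treated mice at 14.42, 14.47 and 14.66. Gstm2 was DE and lower in CI liver, by -0.25 (SE 0.12, adjusted p = 0.476), from 11.88, 12.40 and 12.79 to 11.36, 12.18 and 12.53, and it was not DE in Chronic (0.15) or DID liver (0.17). The call in CI was marginal: in 5 of the 6 alternative fits, with changes of -0.25 to -0.17, it was not DE, among them the fit without treated mouse 9, an array that stood apart. Mu genes form a cluster of near copies on chromosome 3, so that a probe of one may read another.

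Other classes gave isolated DE values. Gstz1, which also breaks down tyrosine products, was DE and lower in Chronic liver by -0.12 (SE 0.03, adjusted p = 0.0662), with 9 of 10 treated mice (14.24, 14.38 and 14.54) below all 9 controls (14.44, 14.50 and 14.57). Gsto1, the omega transferase, was DE and higher in CI liver by 0.18 (SE 0.07, adjusted p = 0.334), from 11.60, 11.90 and 12.08 to 11.77, 12.09 and 12.37. The theta genes had Gstt1 DE and higher in Chronic liver at 0.22 (SE 0.09) and Gstt2 in CI liver at 0.31 (SE 0.11), with adjusted p = 0.256 and 0.300. Gstk1, the kappa transferase of mitochondria and peroxisomes, was not DE with ethanol, at 0.00, 0.11 and -0.18. By their highest probes Gsta2, Gsta3, Gstm4, Gstm5, Gstm6, Gstt3 and Mgst1 were DE in none of the 3 ethanol livers. A lower probe of Gsta3, ILMN_3138685, was DE and lower in Chronic liver by -0.17 (SE 0.08, adjusted p = 0.397).

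Of the enzymes of glutathione synthesis, all 3 were measured in liver, and all 3 were DE and higher in Chronic liver. Gss, glutathione synthetase, rose by 1 of its 3 probes: ILMN_2667909 went from 8.79, 8.92 and 9.12 in 9 controls to 9.04, 9.19 and 9.36 in treated mice, with 8 of 10 above every control. That rise was 0.25 (SE 0.05, adjusted p = 0.00945), fitted without 1 blanked control value. The other probes of Gss gave 0.19 (SE 0.07, adjusted p = 0.186) and 0.12 (SE 0.04, adjusted p = 0.226). Gclm, the modifier subunit of glutamate-cysteine ligase, went from 11.48, 11.71 and 11.91 to 11.66, 11.91 and 12.15, with 5 of 10 treated mice above every control, a change of 0.19 (SE 0.06, adjusted p = 0.145). Gclc, the catalytic subunit, had a change of 0.18 (SE 0.07, adjusted p = 0.255), from 8.61, 8.82 and 9.13 to 8.77, 9.05 and 9.38. In the other livers the changes of their highest probes lay between -0.07 and 0.06 and were not DE.

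The thiol-repair enzymes gave the second gene that rose in CI liver. Glrx, the cytosolic glutaredoxin that removes glutathione from proteins, lay at 10.79, 10.95 and 11.03 in controls and at 10.94, 11.17 and 11.30 in treated mice. With 9 of 10 treated mice above every control, the rise was 0.21 (SE 0.04, adjusted p = 0.0316). Its changes were 0.09, 0.08 and 0.05 in Chronic, DID and LPS liver, none DE. Srxn1, sulfiredoxin, which restores overoxidised peroxiredoxins, was DE and higher in Chronic liver by 0.13 (SE 0.04, adjusted p = 0.122) and in DID liver by 0.13 (SE 0.05, adjusted p = 0.770). In Chronic liver it went from 9.57, 9.73 and 9.82 to 9.64, 9.84 and 10.02, with 7 of 10 treated mice above every control, and in DID liver from 8.54, 8.66 and 8.77 to 8.55, 8.80 and 9.01, with 6 of 10 above. Txnrd1, thioredoxin reductase, was DE in CI liver at 0.07 (SE 0.03, adjusted p = 0.357), near the floor of the scale, and Txn1, thioredoxin, was DE nowhere.

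Enzymes that act on peroxide and superoxide gave few DE values. Sod2, the mitochondrial superoxide dismutase, was DE and higher in CI liver by 0.14 (SE 0.04, adjusted p = 0.172, higher in 10 of 10), with controls at 12.59, 12.71 and 12.96 and treated mice at 12.80, 12.88 and 13.01. Prdx2 was DE there at 0.10 (SE 0.04, adjusted p = 0.374), and Gpx3 was DE and lower in DID liver at -0.08 (SE 0.04, adjusted p = 0.873). Gpx1, the main cytosolic glutathione peroxidase, had changes of -0.04 to 0.00 in the 4 livers, with control medians of 15.43 to 15.60, close to the highest values of the table. Prdx1, Prdx3, Prdx4, Gpx4, Sod1, Sod3 and Cat were DE in none of the 4 livers. Nqo1, a quinone reductase widely used as a marker of NRF2, was measured in liver alone, with changes of 0.07, 0.01, 0.11 and 0.01, none DE.

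Liver a week after LPS had more of these genes lower than higher, and 13 of its 17 measured GSTs were lower. Beside Mgst3, the DE genes that were lower were Gstk1, by -0.15 (SE 0.06, adjusted p = 0.253), Gstm2, by -0.16 (SE 0.06, adjusted p = 0.291), and Gstt3, by -0.28 (SE 0.13, adjusted p = 0.387). Gstk1 went from 12.69, 13.02 and 13.22 to 12.75, 12.84 and 13.05, and Gstm2 from 12.93, 13.17 and 13.41 to 12.79, 13.04 and 13.19, each with 1 of 10 treated mice above the control mean. A lower probe of Mgst1, ILMN_2669416, was DE and lower by -0.17 (SE 0.07, adjusted p = 0.348), where its highest probe gave -0.03. Hmox1, heme oxygenase, which degrades heme, was DE and higher by 0.20 (SE 0.05, adjusted p = 0.0912, higher in 9 of 10), from 8.11, 8.23 and 8.47 to 8.11, 8.46 and 8.62. These values are near the floor of the scale. Hmox1 had values in Chronic and LPS liver alone, and it was not DE in Chronic liver. Of the red cell and neutrophil markers, all 5 measured of 7 listed (Hba-a1, Hbb-bt, Alas2, S100a8, S100a9) were higher in LPS liver, 4 of them DE. Their mean level relative to the control mean ran from -0.27 to 0.32 in controls and from 0.13 to 1.14 in LPS mice. Sinusoidal endothelial markers were higher for 6 of 7 measured, with 9 of 10 LPS mice above every control in mean level. Kupffer cell markers were higher for 6 of 7 (1 DE) and stellate cell markers for 4 of 5 (2 DE), while those of hepatocytes around the central vein were lower for 6 of 8 (2 DE) and ran in mean level from -0.19 to 0.06 in controls and from -0.25 to 0.07 in LPS mice. General hepatocyte markers were higher for 5 of 8 (1 DE and higher, 2 DE and lower). Those of hepatocytes around the portal vein were higher for 2 of 5 (1 DE and higher). The part of these cells in the changes was not tested. In Chronic liver, markers of hepatocytes around the portal vein were lower for 5 of 5 measured (1 DE) and those around the central vein for 5 of 8 (3 DE), and their part in the values of that study was likewise not tested.

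In PFC the ethanol studies gave no DE gene of this set in limma: 0 of 32 in Chronic, 0 of 31 in CI and 0 of 30 in DID, beside 4.38%, 5.21% and 3.88% of all probes. Of the measured genes 7, 9 and 14 were higher, with median changes of -0.03, -0.03 and 0.00. Over all probes 52.0%, 49.6% and 51.2% were higher. The smallest p in Chronic PFC was that of Gstm5, with a change of -0.23 (SE 0.11) and 9 controls at 12.16, 12.43 and 12.80 against treated mice at 11.66, 12.32 and 12.61. In Chronic PFC the next were Txn1, thioredoxin, at -0.17, and Prdx1 at -0.12, in CI PFC Gstm2 at -0.18, Prdx4, the peroxiredoxin of the secretory pathway, at -0.07, and Glrx at -0.17, and in DID PFC Gclm at 0.07, Gsto1 at -0.09 and Gstm1 at 0.10. A lower probe of Srxn1, ILMN_2667346, was DE and higher in Chronic PFC by 0.20 (SE 0.05, adjusted p = 0.578, higher in 10 of 10), where its highest probe gave 0.05. In Chronic PFC 2 treated arrays stood apart, those of mice 2 and 6, and without them 1 gene, Gstm1 (0.15), was DE and higher. The CI values depend on 3 control arrays that stood apart, those of mice 5, 6 and 9. In that set the mean level of neuron markers ran from -1.22 to 0.45 in controls and from -0.03 to 0.37 in treated mice, and that of oligodendrocyte markers from -0.42 to 1.06 and from -0.29 to 0.01. Without these 3 arrays Gstm5 (0.16) and Gstm1 (0.13) were DE and higher, and with 3 clusters of arrays as a term 7 genes were DE and lower, so that the count and its direction depend on how these arrays are treated.

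After LPS most of these transcripts had a higher mean in PFC, where most had a lower one in liver, and this difference between tissues was not tested. Of 32 measured genes 25 were higher and 8 were DE (7 higher, 1 lower), beside 9.58% of all probes, and 14 of 16 GSTs were higher, 5 of them DE. Over all probes 48.7% were higher. The median change over the genes was 0.02, and none passed the adjusted test. Prdx3, the mitochondrial peroxiredoxin, had the smallest p and lay at 9.97, 10.11 and 10.25 in controls and at 10.11, 10.20 and 10.43 in LPS mice. Its change was 0.13 (SE 0.04, adjusted p = 0.297, higher in 9 of 10). Gstm5, a mu transferase with a high level in brain, went from 11.65, 11.93 and 12.06 to 11.81, 12.06 and 12.28, with 5 of 10 LPS mice above every control and a change of 0.16 (SE 0.06, adjusted p = 0.338). Gpx1 went from 12.03, 12.13 and 12.19 to 12.06, 12.22 and 12.27, a change of 0.08 (SE 0.03, adjusted p = 0.360), with 6 of 10 above every control. Gstm2 was above the control mean in 10 of 10 LPS mice, at 8.88, 8.98 and 9.08 against 8.65, 8.88 and 9.11, a change of 0.12 (SE 0.04, adjusted p = 0.386). Gsta4 went from 9.49, 9.65 and 9.76 to 9.56, 9.74 and 9.93 and Gstm1 from 10.82, 10.95 and 11.01 to 10.84, 11.03 and 11.22, both by 0.10 (adjusted p = 0.450 and 0.490), with 4 and 6 of 10 LPS mice above every control. With array weights the change of Gstm1 was 0.08 and not DE. Mgst1 was DE and higher by 0.13 (SE 0.05, adjusted p = 0.449), while its lower probe gave -0.01. Srxn1 alone was DE and lower, from 10.23, 10.36 and 10.46 to 10.08, 10.26 and 10.38, by -0.09 (SE 0.04, adjusted p = 0.449).

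**Figure D4:**
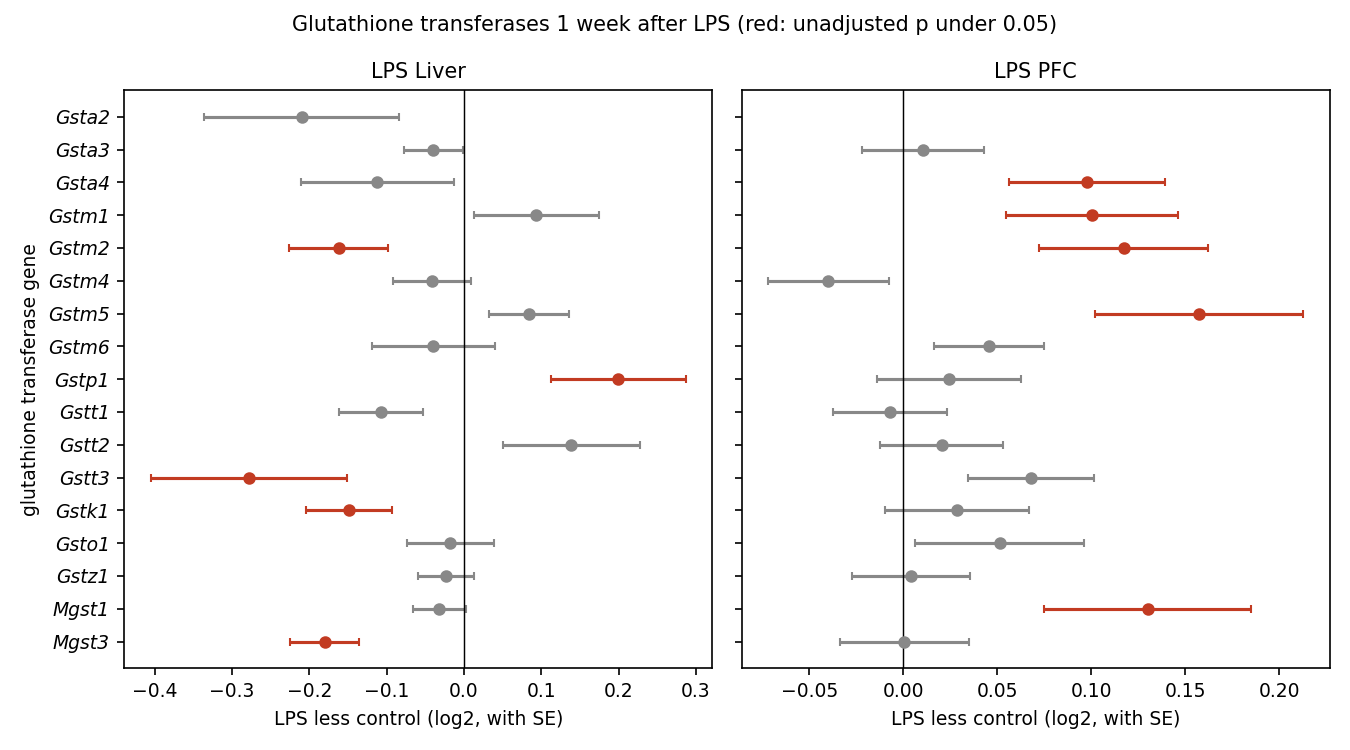
Change of each GST transcript after LPS, treated less control in log2 with its SE, in liver (left) and PFC (right), which have separate axes. Red points have an unadjusted p under 0.05. In liver 13 of 17 points lie below 0, and in PFC 14 of 16 lie above it.

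Markers of several cell types were also higher in LPS PFC. Those of meningeal and vascular fibroblasts were higher for 6 of 6 measured (4 DE), with mean levels of -0.27 to 0.17 in controls and 0.03 to 0.59 in LPS mice. Red cell markers were higher for 3 of 3 (3 DE) and microglial markers for 7 of 8 (4 DE), with 8 and 6 of 10 LPS mice above every control in mean level. Neuron markers were higher for 1 of 7, with 5 of 10 LPS mice below every control. Astrocyte markers were higher for 8 of 9 (0 DE in limma at an unadjusted p under 0.05), and those of thalamus and striatum, regions outside PFC, for 5 of 7 (3 DE), with 2 of 10 LPS mice above every control. The part of these cells and regions in the GST values was not tested. Between tissues, the same probe can be set side by side, though the sets were filtered separately and it is not stated whether they were normalised together. Control medians of Gstm5 were 8.95 to 9.31 in liver and 11.93 to 12.43 in PFC, and those of Gpx1 were 15.43 to 15.60 and 11.75 to 12.13.

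Other genes of glutathione, thiol and NRF2 biology, listed from general knowledge, gave 16 DE of 50 in Chronic liver (13 higher, 3 lower), 12 of 51 in CI (11 higher, 1 lower), 5 of 50 in DID (4 higher, 1 lower) and 6 of 51 in LPS (2 higher, 4 lower), beside 12.1%, 10.5%, 5.19% and 11.6% of all probes. The shares of the list were 32%, 23.5%, 10% and 11.8%, the last of them near its background. The list was drawn up with earlier results of these data known, so its shares are no independent comparison with all probes. Of these, the detoxification enzymes induced by NRF2 had 6 of 13 DE and higher in Chronic, 6 of 13 in CI, 4 of 13 in DID and 0 of 13 in LPS liver, beside the same shares of all probes, and none of the 13 was DE and lower. In the same order, NRF2 and its partners had 2 of 6, 0 of 6, 0 of 6 and 1 of 6 DE. Other glutathione-using enzymes had 1 of 7, 0 of 8, 0 of 8 and 1 of 8. Glutathione breakdown and precursors had 1 of 6, 2 of 6, 1 of 5 and 3 of 6. NADPH supply had 1 of 5, 2 of 5, 0 of 5 and 0 of 5. Other thiol and selenium enzymes had 5 of 13 (3 lower), 2 of 13, 0 of 13 and 1 of 13. A response of NRF2 was not tested. In Chronic liver Ephx1, microsomal epoxide hydrolase, showed a rise of 0.45 (SE 0.08, adjusted p = 0.00808) in 10 of 10 mice, from 12.58, 12.94 and 13.33 to 13.14, 13.46 and 13.74. Blvrb, biliverdin reductase B, rose by 0.35 (SE 0.06, adjusted p = 0.00574), with 9 of 10 treated mice above every control, and Txn2, mitochondrial thioredoxin, fell by 0.23 (SE 0.05, adjusted p = 0.0188), lower in 9 of 9 with 1 treated value blank. CI liver had Cyp2a5, a cytochrome P450 induced by NRF2, which rose by 2 of its probes, by 0.38 (SE 0.07, adjusted p = 0.0273) and 0.43 (SE 0.08, adjusted p = 0.0333), and whose highest probe gave 0.28 (SE 0.06, adjusted p = 0.0575). Ugt1a6a, a glucuronosyltransferase, followed there at 0.24 (SE 0.07, adjusted p = 0.158). In DID liver Aldh3a2, fatty aldehyde dehydrogenase, was higher in 10 of 10 by 0.39 (SE 0.09, adjusted p = 0.193) and Blvrb by 0.29 (SE 0.07, adjusted p = 0.225). In LPS liver Glrx5, a mitochondrial glutaredoxin of iron-sulfur assembly, rose by 0.25 (SE 0.05, adjusted p = 0.0258) in 9 of 9 mice with 1 treated value blank, and Glo1, glyoxalase, was DE and lower by -0.17 (SE 0.05, adjusted p = 0.0938). In PFC the list had 2 of 50, 6 of 46, 4 of 46 and 5 of 45 DE, beside 4.38%, 5.21%, 3.88% and 9.58% of all probes, none with an adjusted p under 0.05 in limma. The smallest p-values there were those of Sqstm1 (0.17) and Gpx7 (-0.09) in Chronic, Chac1 (-0.12) and Oplah (-0.08) in CI, Chac1 (0.14) and Cbr1 (0.10) in DID, and Blvrb (0.10) and Adh5 (0.09) in LPS PFC.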

How the data were processed

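Prefrontal cortex and liver RNA of 159 arrays was analysed. The deposited log2 intensities had been made by the authors in lumi with a variance-stabilizing transformation and quantile normalization, after a filter on detection in each tissue set, and single outlying values had been blanked by Grubbs' test, which narrows the spread of a group. The table holds 13983 probes, 13181 of them with 1 gene symbol and 802 with none, and 4 symbols were updated. The bead-signal tables have 159 columns named by running numbers that match no label, so they were left out and background, scaling and beadchip could not be varied. Groups came from the sample titles.

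In R 4.3.3 with limma 3.58.1, treated less control was fitted within each study and tissue, on all probes, without covariates. Differences between studies were fitted as contrasts of 4 groups and adjusted over all probes and 6 pairs in a tissue. The model was tested on simulated data. Values are given for genes with an adjusted p under 0.05, DE in at least 2 comparisons, differing between studies, or among the 3 smallest p of a comparison; further DE genes are named to account for all members. Of the pathway list, genes with an adjusted p under 0.05 and the 2 with the smallest p of a comparison are named. The member genes and all lists were chosen with earlier results of these data known. Replicate numbers were not taken to pair mice, since no label says what they share. Precision is limited by how many arrays a group has, and p-values measure the spread between the mice of a study.

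Alternatives were a replicate block, probes with no blank value, array weights, a trended robust variance, 3 array clusters as a term, leaving out arrays that stand apart, every probe of a gene, and a stricter p. Promoter sequences are from RefSeq.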

Additional observations from a re-analysis of the deposited data

Results flagged for a closer look

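The liver changes of Mgst3 differed between studies by the tested contrast, by 0.57 for DID less LPS (adjusted p = 0.00944) and by 0.43 for Chronic less LPS (adjusted p = 0.0188), both by probe ILMN_2615035, with the second probe of the gene in the same direction and not past the test.

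In LPS liver, control mouse 10 had a Hmox1 value of 8.47, away from the next highest control at 8.29 and the lowest at 8.11, with a gap of 0.503 of the range of the controls. This was 1 value in 62 groups examined. In values that have not been trimmed chance marks about 1 group in 20, and the authors had already blanked outlying values here.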

How the results depend on the processing

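Counts of DE genes were 9, 9, 5 and 6 in Chronic, CI, DID and LPS liver and 0, 0, 0 and 8 in PFC. They moved by over 1.5 times as follows. With every probe counted, Chronic liver had 15 and Chronic PFC 1. At an unadjusted p under 0.01, CI liver had 3, DID liver 3, LPS liver 2 and LPS PFC 2. Without blanked values DID liver had 3, and with array clusters as a term 9. With the replicate block, Chronic PFC had 2 (Mgst3 and Prdx4, lower), CI PFC 3 (Gstm2, Glrx and Gstz1, lower) and DID PFC 1 (Gclm, higher). Without the arrays that stand apart, Chronic PFC had 1 (Gstm1, higher), CI PFC 2 (Gstm5 and Gstm1, higher) and DID PFC 1 (Gclm, higher). CI PFC had 1 with array weights and 7 with array clusters, and DID PFC 1 with array clusters. The clusters are built from the residual spread and so lower it by construction, and in Chronic PFC this fit was not run, since 1 of the 3 clusters held no control. In the difference test of liver 1 gene passed, against 2 with array weights, which added Gss in Chronic less DID (0.28, adjusted p = 0.0432), and 0 without blanked values, where the probe of Mgst3 is not among those tested.

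Under the replicate block Glrx in CI liver had an adjusted p of 0.0761 and the Gstp1 probe 0.0902, while Gstp1 in Chronic liver kept 0.0147 and Mgst3 there reached 0.0337. Gsto1 in CI liver and Gstm1 in LPS PFC were no longer DE under the block, and Gstm1 also not with array weights. The deviations of same-numbered mice correlated above 0.1 in 0 to 3 of 10 pairs in liver, in 6 of 9 in Chronic PFC, 9 of 10 in CI PFC, 2 of 10 in DID PFC and 4 of 10 in LPS PFC, and the best match of a treated mouse was the control of its own number in 0 to 4 of 10 mice. In Chronic liver the adjusted p ran from 0.000334 to 0.0147 for Gstp1 over 6 alternatives and from 0.00580 to 0.0244 for Gss over 5. With array clusters as a term in DID liver, Mgst3 and Gsta4 had an adjusted p of 0.0383. The DE values of the genes named by rule in liver and LPS PFC were followed singly, and none turned its direction. Genes of the ethanol studies of PFC were not followed singly. Arrays give no counts, and probes near the floor of the scale have little signal over background.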
